A study of Mus musculus with 5 samples.

Results

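C-type lectins and scavenger receptors are the surface proteins with which macrophages bind sugars, lipids, particles and cell debris. A set of 10 genes was chosen by symbol, and all 10 have a row among the 24419 gene rows analysed. They are the C-type lectin genes Clec4d, Clec4e, Clec4n, Clec5a, Clec7a and Clec12a, the mannose receptor gene Mrc1, and the scavenger receptor genes Msr1, Marco and Cd163. The RNA came from bone marrow-derived macrophages (BMMs) of C57BL/6 mice (C57BL6/J in the series' design text), grown with 50 ng/ml M-CSF for 5 days and then activated with 100 ng/ml LPS in both groups. The control group was cultured with PBS (2 libraries) and the other with 100 ng/ml semaphorin 3G (Sema3G, 3 libraries), in each case for 18 h. The comparison asks which genes of activated macrophages respond to Sema3G. The methods describe the recombinant protein as Fc-tagged and purified from 293T cells, and the controls received PBS only, so Sema3G, its tag and anything carried over with it cannot be told apart. No label says that the libraries came from separate mice or cultures, and the p values therefore measure the spread between these libraries, which may be technical.

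Many myeloid C-type lectins pass a signal through the kinase Syk and the adaptor Card9 to NF-kB. Clec7a carries its own tyrosine motif in its tail, whereas Clec4d, Clec4e and Clec4n pair with the Fc receptor gamma chain (Fcer1g) and Clec5a with DAP12 (Tyrobp). Clec12a carries an inhibitory motif that recruits the phosphatases Ptpn6 and Ptpn11. The mannose receptor and the scavenger receptors act mainly in uptake, and several of these genes are also used as markers of the state of macrophage activation.

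Each library gave between 1798469 and 2215855 UMIs, where a UMI (unique molecular identifier) marks a single captured RNA 3′ end. Of these, 77.6% and 75.6% lay on listed genes with PBS and 71.3%, 67.1% and 65.9% with Sema3G. Values are given as CPM, in which the UMIs of a gene are scaled to the total of its library. Since an RNA is counted at its 3′ end whatever its length, CPM can be set side by side between genes without division by length. Some facts about the libraries bear on what follows. Rn45s, the gene of the ribosomal RNA precursor, held 1.01% and 3.19% of the UMIs with PBS and 6.31%, 7.40% and 7.88% with Sema3G. The groups did not overlap in either share, and both enter the CPM of the other genes. Sema3G replicates 2 and 3 resembled each other more than any other pair, since their counts differed by a chi-square of 1.77 per degree of freedom, beyond sampling noise, against 6.57 to 29.6 for the other 9 pairs. All 12 macrophage markers looked up had UMIs, with summed levels of 12739 to 16794 CPM with PBS and 11730 to 12531 CPM with Sema3G. Of the marker lists of other cells, 7 of 11 neutrophil genes with a row had UMIs, 7 of 12 dendritic cell genes, 3 of 10 lymphoid genes, 3 of 10 mast cell and basophil genes and 9 of 10 stromal genes. The summed neutrophil list was at 615 to 899.9 CPM with PBS and 518 to 631 CPM with Sema3G, most of it Mmp8 and S100a8, while Elane, Ngp and Cxcr2 were at 0 in every library. The dendritic cell list was at 30.5 to 47.3 CPM and 16.1 to 48.4 CPM, most of it Bst2, with Flt3, Xcr1 and Siglech at 0. The stromal list was at 33.7 to 73.1 CPM and 27.1 to 53.9 CPM, the lymphoid list at 6.96 to 12.6 CPM and 2.77 to 9.45 CPM with Cd3e at 0, and the mast cell and basophil list at no more than 1.65 CPM with Kit at 0. The groups overlapped for each of these 5 lists, whereas the summed macrophage list was lower in every Sema3G library than in both PBS libraries. The part of Rn45s and of the UMIs on no listed gene in the results below was not tested. In bulk RNA, fewer cells that express a gene and less RNA per cell cannot be told apart.

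The 10 receptors covered a wide range of levels, in nearly the same order in every library. Clec4d was the highest member in 5 of 5 libraries, and it held 46.1% to 54.2% of the summed CPM of the 10 genes. Mrc1, Clec5a and Cd163 were at rank 8, 9 and 10 in 5 of 5 libraries. Between them, Clec4n, Msr1, Clec4e, Clec12a, Clec7a and Marco lay at group means of 96.7 to 471 CPM and changed places. Clec7a was at rank 7 in both PBS libraries and at rank 4, 5 and 5 with Sema3G, while Marco went from rank 6 to rank 7 in all 3. Summed over the 10 genes, the level was 3372 ± 479.9 CPM in the PBS group (SD, n = 2) and 2653 ± 324 CPM in the Sema3G group (SD, n = 3).

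**Figure D1:**
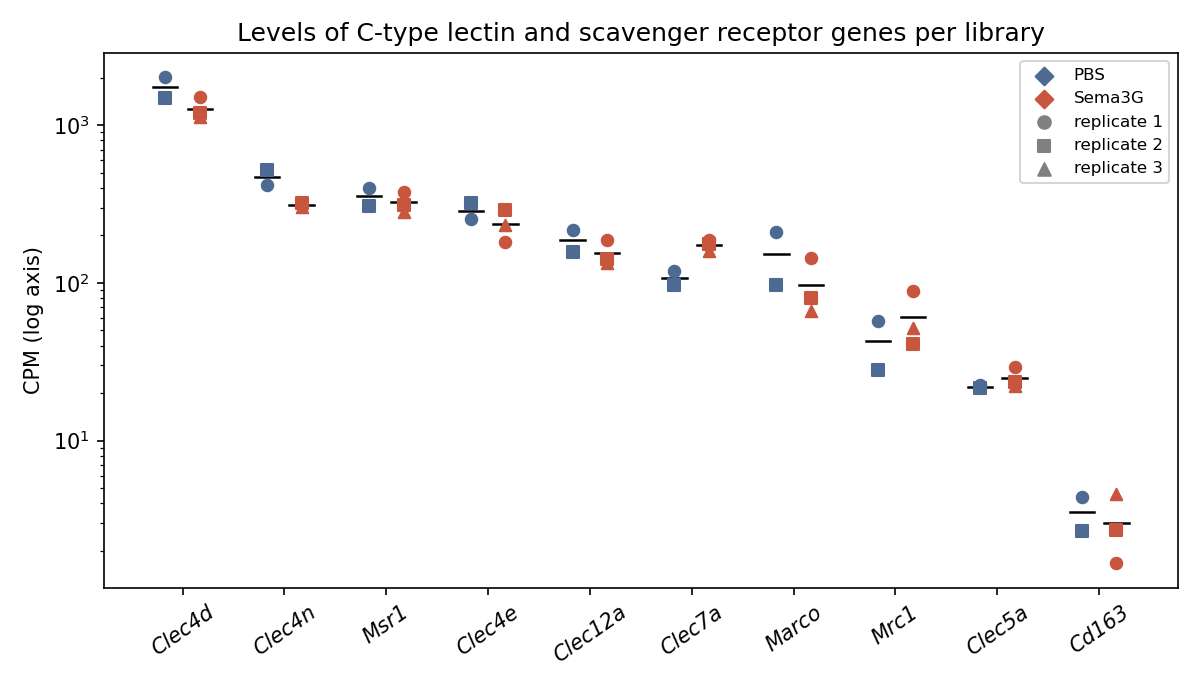
CPM (log axis) of the 10 receptor genes in each library, ordered by mean level, with PBS in blue, Sema3G in red, the marker shape giving the replicate number and black lines the group means. Clec7a, between 96.9 and 119 CPM with PBS and between 159 and 187 CPM with Sema3G, and Clec4n, between 418 and 523 CPM with PBS and between 303 and 320 CPM with Sema3G, are the genes whose groups do not overlap.

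Among all 10088 genes tested, limma on log2(CPM + 1) called 182 at an adjusted p below 0.05, which is 1.8% of them, 160 higher (1.59%) and 22 lower (0.218%) with Sema3G. None of the 10 receptors was among these 182. At an unadjusted p under 0.05 in the same fit there were 3 receptors, Clec7a, Clec4n and Marco, against 21.1% of all genes. Without Sema3G replicate 1 the split of calls turned, to 303 higher and 553 lower. Those 856 of 10073 genes tested included 2 receptors, Clec7a and Marco. In edgeR's quasi-likelihood test with TMM scaling on the recovered UMI counts, which called 4.1% of 8144 genes, 1 receptor was called, Clec7a, and DESeq2, which called 2.78% of 8305 genes with an adjusted p, also called Clec7a alone. By library size only, without TMM, edgeR's test called 0 receptors. The groups did not overlap in the direction of higher Sema3G values for 1 receptor, Clec7a (11.9% of all genes), and in the lower direction for 1, Clec4n (26.5% of all genes). The log2 fold change on this scale, Sema3G minus PBS, is called the log2 difference. Its median was -0.25 over the 10 receptors and -0.22 over all genes tested. After scaling by TMM factors the median of all genes was -0.036 and the split of calls was 322 higher and 3 lower, so changes are also given relative to the median of all genes.

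**Figure D2:**
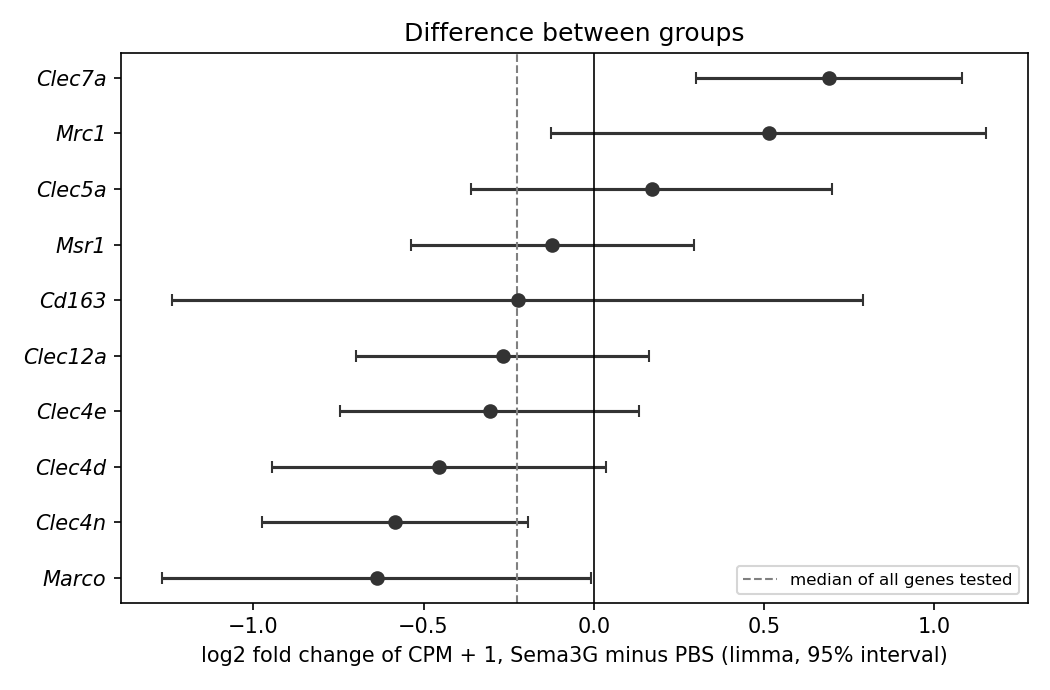
Log2 fold change of CPM + 1, Sema3G minus PBS, for the 10 receptor genes, with 95% intervals from limma, a solid line at 0 and a dashed line at the median of all genes tested. Clec7a (0.69) lies at the upper end, Marco (-0.64) and Clec4n (-0.58) at the lower end, and the intervals of the other 7 genes include 0.

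The C-type lectin genes lie mostly in groups on chromosome 6 (GENCODE M21, GRCm38, the build also known as mm10). Clec4n (plus strand, chr6:123229843-123247021), Clec4d (plus strand, chr6:123262111-123275265) and Clec4e (minus strand, chr6:123281789-123289870) follow each other within 60.0 kb. Clec12a (plus strand, chr6:129342691-129365303) and Clec7a (minus strand, chr6:129461591-129472779) share another group of 130.1 kb. No exon of any of the 10 genes overlaps another annotated gene, and Mrc1 holds the microRNA gene Mir511 in an intron. GENCODE M21 lists Clec7a as a polymorphic pseudogene and the other 9 as protein coding.

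The promoter windows of Clec7a, the receptor gene with the lowest p value, and of Clec4d and Clec4e, the most abundant receptor gene and its neighbour, are shown from RefSeq (GRCm38.p6). Each window runs 5′ to 3′ on the strand of the gene, from 250 bases before to 50 bases after an annotated start. Clec7a (minus strand) spans chr6:129472730-129473029, Clec4d (plus strand) chr6:123261857-123262156 and Clec4e (minus strand) chr6:123289822-123290121. Capitals mark matches on either strand to GAGGAA, a core bound by the myeloid factor PU.1, to TATAAA, the TATA box, and to TGANTCA, the AP-1 site, with no overlap between matches in these windows.
Clec7a: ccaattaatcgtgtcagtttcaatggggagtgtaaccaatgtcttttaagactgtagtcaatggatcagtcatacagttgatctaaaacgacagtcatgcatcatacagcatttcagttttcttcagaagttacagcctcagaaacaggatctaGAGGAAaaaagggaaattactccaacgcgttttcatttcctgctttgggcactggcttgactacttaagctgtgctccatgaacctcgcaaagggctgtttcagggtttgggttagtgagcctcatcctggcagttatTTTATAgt
Clec4d: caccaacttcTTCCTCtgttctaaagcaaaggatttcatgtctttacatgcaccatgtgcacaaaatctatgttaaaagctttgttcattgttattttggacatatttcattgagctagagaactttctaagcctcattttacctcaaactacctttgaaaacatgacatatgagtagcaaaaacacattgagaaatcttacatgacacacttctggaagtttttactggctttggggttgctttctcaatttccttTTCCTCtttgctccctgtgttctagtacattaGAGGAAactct
Clec4e: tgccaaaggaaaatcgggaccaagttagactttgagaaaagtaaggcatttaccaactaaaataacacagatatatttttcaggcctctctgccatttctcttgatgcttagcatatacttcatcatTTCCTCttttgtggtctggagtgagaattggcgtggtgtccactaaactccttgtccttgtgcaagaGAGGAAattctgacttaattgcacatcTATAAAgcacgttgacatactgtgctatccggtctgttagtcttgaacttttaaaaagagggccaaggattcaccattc
The PU.1 core was found once in the Clec7a window, 96 bases before the start, 3 times in that of Clec4d and at 123 and 56 bases before the start in that of Clec4e. The TATA letters lay 29 bases before the start of Clec4e, whereas in Clec7a they lay 43 bases after it, on the other strand. RefSeq also gives Clec7a a start 6 bases upstream, whose window shares 294 bases with that shown and holds the PU.1 core at 90 bases before the start but no TATA letters. Of the 8 receptor genes matched in RefSeq's windows, 7 held the PU.1 core, the exception being Cd163, against 28.3% of all 32851 windows. The AP-1 letters were in 1 of the 8, Clec12a, against 7.81% of all windows, and the TATA letters in 3, counting Clec7a by the window shown, against 13.6%. Clec4n and Msr1 were not matched. These matches are letters in a window and not measured binding.

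Clec7a encodes Dectin-1, the receptor for fungal beta-glucan. It was at 119 and 96.9 CPM in the PBS libraries and at 187, 176 and 159 CPM in the Sema3G libraries, so that every Sema3G library lay above both PBS libraries. The groups were at 108 ± 15.4 CPM (SD, n = 2) and 174 ± 14.5 CPM (SD, n = 3), 1.62-fold higher with Sema3G, from 397 and 1072 UMIs. On the log2(CPM + 1) scale the difference was 0.69 (standard error 0.19, 95% interval 0.30 to 1.08), and it missed the limit with an adjusted p of 0.0671 from limma. It was 0.92 above the median of all genes. The adjusted p was 0.0111 in edgeR's quasi-likelihood test with TMM scaling, 0.0764 in the same test by library size only, 0.00138 in DESeq2 and 0.00755 in limma after TMM scaling. With CPM computed from listed genes without Rn45s, the log2 difference was 0.98 (limma adjusted p = 0.00304). Over all 16 alternatives it lay between 0.55, without PBS replicate 2, and 0.98, and the adjusted p from 0.00130 to 0.333. Of the 5 fits that leave out a library, Clec7a passed the limit in 1. That fit, without Sema3G replicate 1, gave Clec7a 0.64 (limma adjusted p = 0.0426) and called 856 of 10073 genes. The limma adjusted p was 0.0761 without PBS replicate 1, 0.171 without PBS replicate 2, 0.333 without Sema3G replicate 2 and 0.205 without Sema3G replicate 3.

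Ratios of Clec7a to the other receptors within a library are free of library scaling, and hence of the UMIs taken by Rn45s. For every 100 UMIs of the 10 receptors, Clec7a held 3.20 and 3.20 with PBS and 6.23, 6.85 and 6.68 with Sema3G. Relative to Clec4n, the gene of the mannan receptor Dectin-2, the Clec7a UMIs were at a ratio of 0.284 and 0.185 with PBS and 0.600, 0.552 and 0.523 with Sema3G. Relative to Clec12a the ratio was 0.552 and 0.620 with PBS and 1.003, 1.25 and 1.19 with Sema3G, so that Clec7a exceeded Clec12a in 3 of 3 Sema3G libraries, though by 337 to 336 UMIs in replicate 1, and in 0 of 2 PBS libraries. The groups did not overlap for 7 of the 9 other receptors, and overlapped for Mrc1 and for Cd163. For 69.1% of the 10087 other genes tested, the ratio of Clec7a to that gene was likewise higher in every Sema3G library than in both PBS libraries. The ratio of group means ran from 1.13 for Mrc1 to 2.52 for Marco. For a single ratio, 2 libraries against 3 allow no p below 0.2 in an exact two-sided permutation test, and these ratios share the Clec7a counts.

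**Figure D3:**
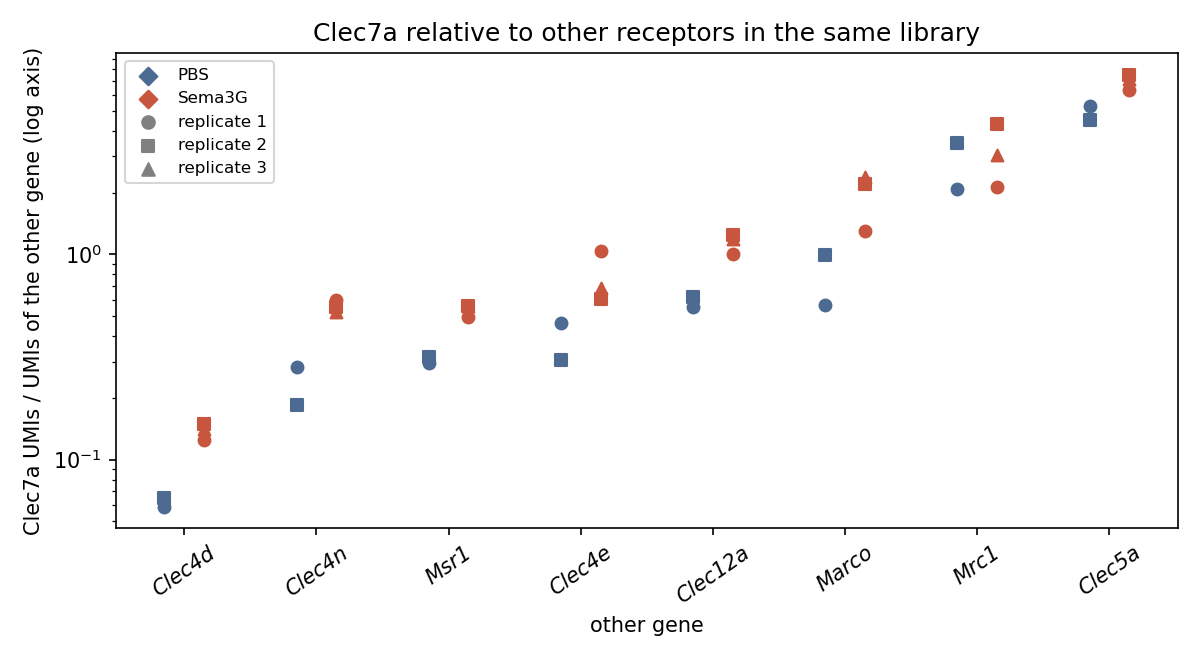
Clec7a UMIs divided by the UMIs of each other receptor gene in the same library (log axis), with PBS in blue, Sema3G in red and the marker shape giving the replicate number; Cd163, with at most 10 UMIs a library, is left out. The Sema3G libraries lie above both PBS libraries for every gene plotted but Mrc1, whose ratio was 2.08 and 3.48 with PBS and 2.12, 4.30 and 3.04 with Sema3G.

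Clec4n encodes Dectin-2, which binds fungal mannan and signals through the Fc receptor gamma chain. It was at 418 and 523 CPM with PBS and at 312, 320 and 303 CPM with Sema3G, and every Sema3G library lay below both PBS libraries. The group means were 471 ± 74.2 CPM (SD, n = 2) and 312 ± 8.12 CPM (SD, n = 3), a log2 difference of -0.58 (SE 0.19, limma adjusted p = 0.108). It lay -0.36 from the median of all genes, and edgeR's quasi-likelihood test with TMM gave a log2 fold change of -0.40 (adjusted p = 0.272). With CPM from listed genes without Rn45s the log2 difference was -0.29. It was -0.74 without PBS replicate 1, -0.42 without PBS replicate 2 and -0.59 without Sema3G replicate 1 (limma adjusted p = 0.05001 in the last).

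Clec4d (MCL) and Clec4e (Mincle) encode receptors for mycobacterial glycolipid that act together at the cell surface. Clec4d was at 2010.3 and 1482 CPM with PBS and at 1500.2, 1186 and 1122 CPM with Sema3G. The groups overlapped, since Sema3G replicate 1 lay above PBS replicate 2, and the log2 difference was -0.45 (95% interval -0.95 to 0.036, limma adjusted p = 0.272). It was -0.24 without PBS replicate 1, -0.67 without PBS replicate 2, -0.58 without Sema3G replicate 1 and -0.16 with CPM from listed genes without Rn45s. Clec4e was at 255 and 319 CPM with PBS and at 181, 291 and 231 CPM with Sema3G, a log2 difference of -0.31 (95% interval -0.75 to 0.13, limma adjusted p = 0.403). It was -0.15 without PBS replicate 2, -0.13 without Sema3G replicate 1, -0.47 without PBS replicate 1, -0.47 without Sema3G replicate 2 and -0.016 with CPM from listed genes without Rn45s. Although the genes are neighbours, their libraries were ordered differently: within each group, replicate 1 was the highest library for Clec4d and the lowest for Clec4e. Clec4e and Clec4n kept a closer ratio, 0.610 and 0.609 with PBS and 0.580, 0.911 and 0.763 with Sema3G.

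Clec5a (MDL-1), which signals through DAP12, was at a low level of 22.5 and 21.4 CPM with PBS and 29.5, 23.5 and 22.1 CPM with Sema3G. The groups overlapped, and the log2 difference was 0.17 (95% interval -0.36 to 0.70, limma adjusted p = 0.720). It was 0.051 without Sema3G replicate 1 and 0.46 with CPM from listed genes without Rn45s. Clec12a, the inhibitory receptor of the set, was at 215 and 156 CPM with PBS and at 187, 142 and 133 CPM with Sema3G. Its groups overlapped too, and its log2 difference of -0.27 (limma adjusted p = 0.453) was -0.043 from the median of all genes. It was -0.040 without PBS replicate 1, -0.50 without PBS replicate 2, -0.42 without Sema3G replicate 1 and -0.17 without Sema3G replicate 3, and 0.022 with CPM from listed genes without Rn45s. The ratio of Clec12a to Msr1 was 0.536 and 0.510 with PBS and 0.494, 0.452 and 0.471 with Sema3G, and that of Clec4d to Clec12a was 9.36 and 9.48 with PBS and 8.03, 8.37 and 8.45 with Sema3G. These pairs had the lowest SD of the log2 ratio, 0.096 and 0.106, among the 45 pairs of the 10 receptors. In both, every Sema3G library lay below both PBS libraries. Other pairs also kept the groups apart, among them Clec4d to Msr1 (lower with Sema3G) and Clec5a to Msr1 (higher with Sema3G). How many of the 45 pairs did so was not counted. The pairs were compared without a test.

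Of the receptors for uptake, Mrc1, the mannose receptor CD206 and a marker of alternatively activated macrophages, was at 57.1 and 27.8 CPM with PBS and 88.4, 41.1 and 52.1 CPM with Sema3G. Replicate 1 was the highest library of each group, and the groups overlapped. The log2 difference was 0.51 (standard error 0.30, 95% interval -0.13 to 1.15, limma adjusted p = 0.337). Without PBS replicate 1 it was 1.02, and without PBS replicate 2 it was 0.0077, with adjusted p values of 0.131 and 0.992 from limma. Without Sema3G replicate 1 it was 0.21, and with CPM from listed genes without Rn45s 0.80 (limma adjusted p = 0.157).

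Marco encodes a class A scavenger receptor that binds bacteria and particles. It was at 209 and 97.4 CPM with PBS and at 143, 80.3 and 66.4 CPM with Sema3G, and Sema3G replicate 1 lay between the PBS libraries. The log2 difference was -0.64 (standard error 0.30, 95% interval -1.27 to -0.0072, limma adjusted p = 0.232). The PBS libraries themselves differed by 2.15-fold in Marco (95% exact binomial interval 1.80 to 2.58, which covers counting error only). The log2 difference turned on the libraries kept: it was -1.19 without PBS replicate 2 and -0.090 without PBS replicate 1. Without Sema3G replicate 1 it was -0.96 (limma adjusted p = 0.0480), in a fit that called 856 of 10073 genes. It was -0.41 without Sema3G replicate 3 and -0.35 with CPM from listed genes without Rn45s (limma adjusted p = 0.626).

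Msr1 encodes scavenger receptor A, which takes up modified lipoprotein. It was at 401 and 306 CPM with PBS and at 378, 314 and 282 CPM with Sema3G, with overlapping groups and a log2 difference of -0.12 (95% interval -0.54 to 0.29, limma adjusted p = 0.745). Its direction turned with the scaling, to 0.082 after TMM factors and 0.17 with CPM from listed genes without Rn45s, and it was 0.073 without PBS replicate 1, -0.32 without PBS replicate 2, -0.24 without Sema3G replicate 1 and -0.025 without Sema3G replicate 3. Cd163, the receptor for haemoglobin bound to haptoglobin, was hardly detected, with 8 and 5 UMIs with PBS and 3, 6 and 10 UMIs with Sema3G. A count of 3 UMIs, taken as the limit of detection, corresponds to between 1.35 and 1.67 CPM in these libraries. The ratio of Sema3G to PBS over the summed UMIs of Cd163 was 0.872 (95% exact binomial interval 0.408 to 1.92), so neither a rise nor a fall within that range was detectable at this depth.

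**Figure D4:**
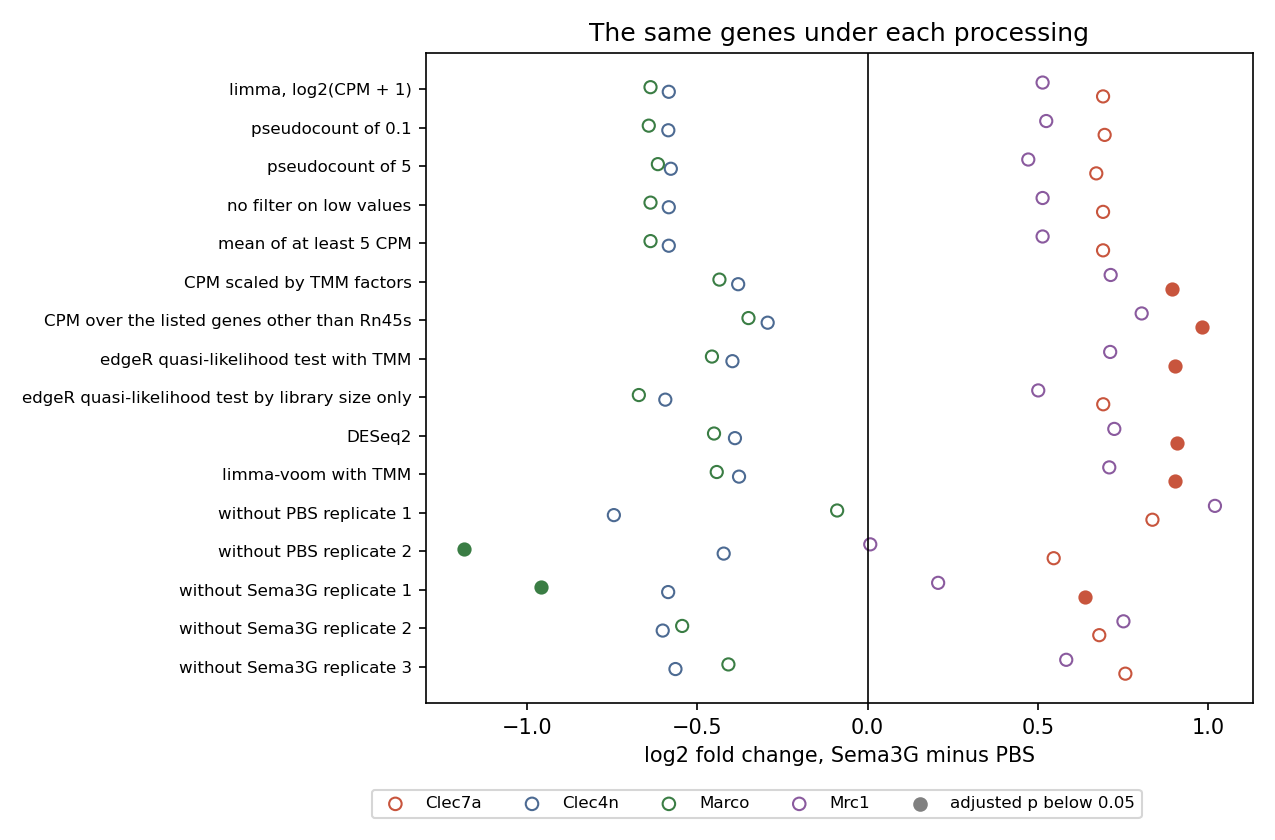
Log2 fold change (Sema3G minus PBS) of Clec7a, Clec4n, Marco and Mrc1 under limma on log2(CPM + 1), in the top row, and under alternative tests, scalings and filters or with 1 library left out; filled points have an adjusted p below 0.05. Clec7a stays between 0.55 and 0.98, while Mrc1 runs from 0.0077 to 1.02 and Marco from -1.19 to -0.090 with the PBS library that is kept.

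The other C-type lectin receptors, a list of 41 genes, held 16 at 0 UMIs in every library, 25 with UMIs and, of these, 11 abundant enough to test. None of the 11 was called by limma, 3 had an unadjusted p under 0.05 (21.1% of all genes), and their median log2 difference was -0.39, or -0.17 from that of all genes. The highest were Clec4a1, Clec4a2 and Cd93. Clec4a1, of the same family as the inhibitory receptor Clec4a2, was at 1478 and 1391 CPM with PBS and at 1189, 748 and 739.9 CPM with Sema3G, at a mean of 1109 CPM over the 5 libraries against 1460.2 CPM for Clec4d. Its log2 difference was -0.72 (limma adjusted p = 0.114). In the fit without Sema3G replicate 1, which called 856 of 10073 genes, it was -0.95 (limma adjusted p = 0.0102). Clec4a2 was at 527 and 385 CPM with PBS and at 438, 290 and 284 CPM with Sema3G. Its log2 difference was -0.45 (limma adjusted p = 0.250), and -0.65 without Sema3G replicate 1 (limma adjusted p = 0.0426). Cd93, a phagocyte surface protein with a lectin-like domain, had a log2 difference of -0.47 (limma adjusted p = 0.301). For Clec4a2 and Cd93 the groups overlapped, since Sema3G replicate 1 lay above PBS replicate 2. Clec4a1 to Clec4a4 are close relatives, and the sources used here do not say how reads that fit more than 1 of them were counted.

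For the other scavenger receptors, a list of 20 genes, the estimate was below 0 for all 10 that could be tested, as it was for 67.5% of all genes. None was called by limma, 3 had an unadjusted p under 0.05 (21.1% of all genes), and the median log2 difference was -0.49, or -0.26 from that of all genes. Cxcl16, a chemokine that also binds oxidized lipoprotein, was at 591 and 662 CPM with PBS and at 520.4, 499 and 429 CPM with Sema3G (log2 difference -0.38, limma adjusted p = 0.265). Lrp1, an uptake receptor for many ligands including apoptotic cells, was at 331 and 337 CPM with PBS and at 231, 217 and 239.7 CPM with Sema3G (log2 difference -0.54, limma adjusted p = 0.115). In both genes every Sema3G library lay below both PBS libraries, as in 26.5% of all genes. Cd68, a lysosomal macrophage marker, was at 655 and 337 CPM with PBS and at 425, 300 and 291 CPM with Sema3G. Its groups overlapped (log2 difference -0.49, limma adjusted p = 0.261). Without PBS replicate 2 the log2 difference was -0.97 for Cd68 and -1.74 for Cd5l. The fit without Sema3G replicate 1, which called 856 of 10073 genes, called Stab1 (-0.65, limma adjusted p = 0.0355). With all 5 libraries Cd5l had a log2 difference of -0.81 (limma adjusted p = 0.311) with overlapping groups. It was at 126 and 34.3 CPM with PBS and at 82.8, 23.0 and 26.3 CPM with Sema3G. Stab1 had a log2 difference of -0.48 (limma adjusted p = 0.186) with all 5 libraries. Cd5l and Stab1 were named after their values were seen.

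The genes that carry the signal of these lectins form a list of 24, and all 24 were abundant enough to test. None was called by limma and 9 had an unadjusted p under 0.05 (21.1% of all genes), and the median log2 difference was -0.30, or -0.076 from that of all genes. The adaptors of Clec4d, Clec4e, Clec4n and Clec5a were abundant. Fcer1g was at 2005 and 1293 CPM with PBS and at 1597, 1262 and 1169 CPM with Sema3G (log2 difference -0.27, limma adjusted p = 0.523). Tyrobp was at 1130.2 and 673 CPM with PBS and at 782, 556 and 524 CPM with Sema3G (log2 difference -0.51, limma adjusted p = 0.230). For both adaptors the groups overlapped, since Sema3G replicate 1 lay above PBS replicate 2. Of the phosphatases recruited by Clec12a, Ptpn6 had a log2 difference of 0.11 (limma adjusted p = 0.745). Ptpn11, named after its values were seen, was at 31.9 and 24.1 CPM with PBS and at 38.9, 41.5 and 47.5 CPM with Sema3G (log2 difference 0.60, limma adjusted p = 0.158), every Sema3G library above both PBS libraries, as in 11.9% of all genes. With CPM from listed genes without Rn45s limma called Ptpn11 (0.89, adjusted p = 0.0299). Card9, the adaptor that links Syk to NF-kB, had a mean of 1.23 CPM, so a moderate change in it was not detectable at this depth. In edgeR's quasi-likelihood test with TMM scaling, 3 genes of the list were called higher, beside 4.05% of all genes tested there, and they are named after their values were seen. They are Tec (1.72 as edgeR's log2 fold change, edgeR adjusted p = 0.0395), a kinase of the Btk family, Vav3 (1.12, edgeR adjusted p = 0.0495), which acts downstream of Syk, and Pik3r1 (1.06, edgeR adjusted p = 0.0331), the regulatory subunit of PI3K. The same test by library size only and DESeq2 called 0 genes of the list. On the log2(CPM + 1) scale the differences were 1.28, 0.82 and 0.83. Tec was at 4.94 and 5.35 CPM with PBS and at 8.90, 17.1 and 17.5 CPM with Sema3G.

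**Figure D5:**
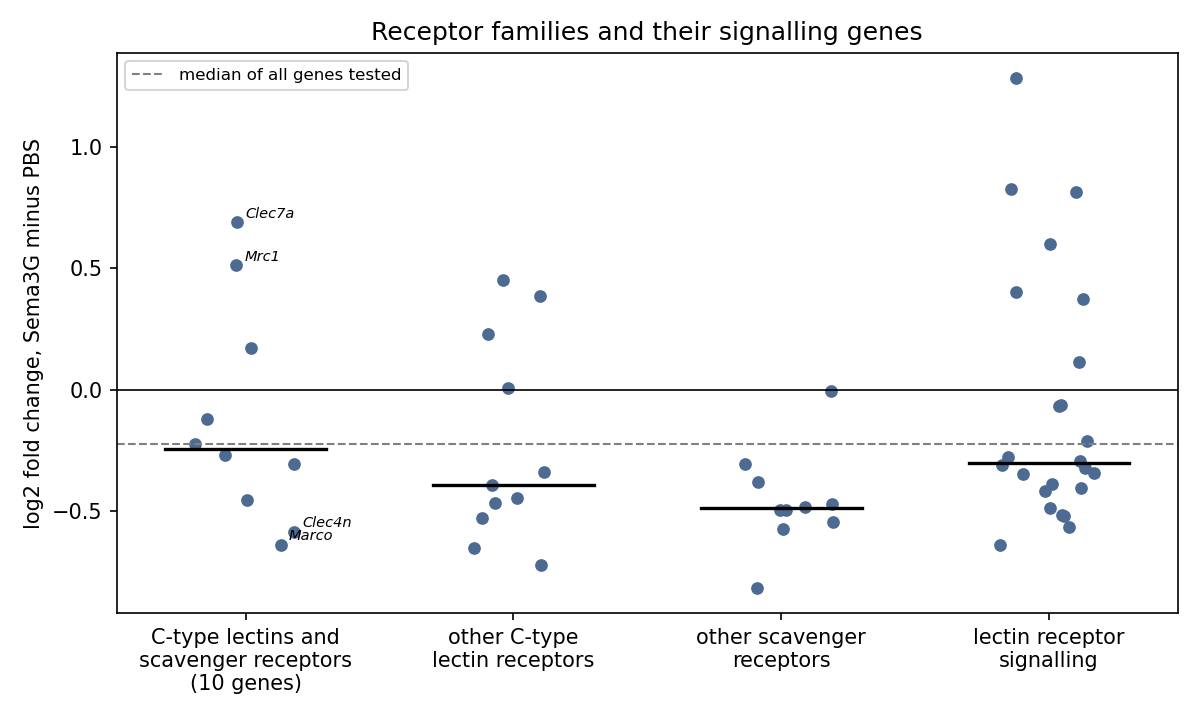
Log2 fold change (Sema3G minus PBS, limma) of each tested gene in the 10 receptor genes and in 3 lists of related genes; each point is a gene, black bars are list medians and the dashed line is the median of all genes tested. List medians are -0.25, -0.39, -0.49 and -0.30 from left to right, and Clec7a and Mrc1 stand above the rest of the 10 receptors.

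The genes whose profile over the 5 libraries was nearest to that of Clec4d, the highest receptor, were Rpl37rt, Ndufa6 and Sirpa, among the 2249 other genes whose mean reached 50 CPM. Their root mean square difference from Clec4d, on centred log2(CPM + 1) values, was 0.0259, 0.0260 and 0.0310. Sirpa, the macrophage receptor for CD47, was at 1014 and 753 CPM with PBS and at 725, 602 and 577 CPM with Sema3G. With 5 libraries, this likeness is a description only.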

How the data were processed

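RNA of 5 samples of LPS-activated BMMs was used, 2 with PBS and 3 with Sema3G, grouped by their labels. The authors made 3′-end libraries with UMIs (QuantSeq), used Strand NGS to count UMIs per gene from reads mapped to mm10, and normalized them with edgeR (3.12 in the submitters' processing notes). The deposited values are CPM, next to p-values, q-values and a rank of the authors' own comparison, which were not used. The sources used here give neither the gene annotation nor any filter. CPM values were whole multiples of a step per library (100% within 0.01 of a whole count), which gave the UMI counts.

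Had the file held counts, edgeR's quasi-likelihood test would have been used. For CPM, genes whose mean reached 1 CPM were fitted on log2(CPM + 1) in limma (3.58.1, under R 4.3.3) with its trend option. P values were adjusted by the Benjamini-Hochberg method over all genes tested, with a limit of 0.05. On this scale the change of low genes is understated. edgeR (4.0.16) and DESeq2 (1.42.0) on recovered counts, other pseudocounts, filters and scalings, a replicate block and leaving out each library were alternatives. In data simulated for Sema3G against PBS with 200 genes changed 4-fold, limma recovered 98.5% with 6 false calls among 10098 genes. The simulation used a fixed dispersion, changed only well-counted genes and held no shift such as that of Rn45s. Its figures therefore do not carry over to these libraries or to smaller changes.

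The receptors and gene lists were chosen with earlier results of these data known. Besides the 10 receptors, the 3 genes of each list with the highest mean were named, list genes that passed the limit, the 3 genes most like the highest receptor, and Rn45s. Positions are from GENCODE M21 and promoters from RefSeq. The depth sets a limit of 3 counts, 1.35 to 1.67 CPM, and exact binomial intervals cover counting error only, whereas limma's intervals come from the spread between libraries.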

Additional observations from a re-analysis of the deposited data

How the results depend on the processing

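Of 156 log2 fold changes of the 10 receptors under 16 alternatives, 136 kept their direction and their side of the limit, 10 passed the limit where they had not before and 10 turned their direction. The cause was not tested, except that settings without a library hold fewer samples, and a lone PBS library is taken to vary as the rest do. The values that turned lay near 0. Msr1 was 0.082 with CPM scaled by TMM factors, 0.17 with CPM from listed genes without Rn45s, 0.085 in edgeR's quasi-likelihood test with TMM, 0.090 in DESeq2, 0.085 with limma-voom and 0.073 without PBS replicate 1, and with single libraries left out it ran from -0.32 to 0.073. Clec12a was 0.022 with CPM from listed genes without Rn45s. Cd163 was 0.025 in DESeq2, which gave it no adjusted p, 0.053 without PBS replicate 1 and 0.034 without Sema3G replicate 1 (-0.50 to 0.053 with single libraries left out), and it was not tested with a mean of 5 CPM, edgeR or limma-voom.

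The number of receptors called, 0, was 1 (Clec7a) with TMM-scaled CPM, with CPM from listed genes without Rn45s, in edgeR's quasi-likelihood test with TMM, in DESeq2 and with limma-voom. Leaving out single libraries gave 0 to 2. The count over all genes, 182, was 108 with no filter, 325 with TMM-scaled CPM, 487 with CPM from listed genes without Rn45s and 334 in edgeR's quasi-likelihood test with TMM. Leaving out Sema3G replicate 1 gave 856 (303 higher and 553 lower), the highest count, and leaving out Sema3G replicate 2 gave 26, the lowest. It was 28 if Sema3G replicate 3 was dropped and 92 if PBS replicate 1 was. The signalling list, with 0 called, had 2 with TMM-scaled CPM, 4 with CPM from listed genes without Rn45s, 3 in edgeR's quasi-likelihood test with TMM, 1 with limma-voom, 0 in DESeq2 and in edgeR by library size only, and 0 to 4 with 1 library left out. The other C-type lectin receptors and the other scavenger receptors, with 0 called, both ranged from 0 to 2 with 1 library left out.

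The labels give PBS and Sema3G libraries the same replicate numbers but do not say what a number shares. Deviations from the group means correlated across genes at 0.17 between the libraries numbered 1 and at 0.11 between those numbered 2, and 2 pairs do not settle a pairing. With a replicate block, which leaves 1 residual degree of freedom, 573 genes were called (298 higher and 275 lower), 2 receptors (Clec7a higher, adjusted p = 0.00130, and Clec4n lower, adjusted p = 0.0222 from limma), 1 other C-type lectin receptor (Clec4a1), 2 other scavenger receptors (Lrp1 and Scarb2) and 1 signalling gene (Pik3r1). Scarb2 was named after its values were seen.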
